A study of Caenorhabditis elegans with 18 samples.

Results

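The muscle sarcomere genes described here were unc-54, myo-1, myo-2, myo-3, unc-15, unc-89, lev-11, mup-2, atn-1 and unc-87. They were chosen by name, as 10 of the 47020 genes listed in the expression tables, and each symbol matched 1 WBGene identifier of the WBcel235 annotation. The series asked how cadmium and loss of the integrator complex, which processes small nuclear RNAs used in splicing, alter mRNA levels and splicing in the nematode Caenorhabditis elegans. Wild-type N2 worms ate RNAi bacteria, which make double-stranded RNA from a plasmid, from the L1 stage. At late L3 they were moved to fresh RNAi plates with 0 or 300 μM cadmium and held there for 12 h. The RNA was taken from whole animals and enriched with oligo-dT, and the animals were late L4 to young adult by the methods and gravid young adults by the deposited design text. There were 6 groups of 3 libraries. These were control(RNAi), fed the empty vector, numr-1/2(RNAi), aimed at the cadmium-induced numr-1 and its copy numr-2, and ints-4(RNAi), aimed at an integrator subunit, each without and with cadmium. All 6 groups shared the N2 background and a diet of RNAi bacteria.

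A sarcomere is the repeating contractile unit of striated muscle, in which myosin thick filaments slide along actin thin filaments. In C. elegans the thick filaments of body wall muscle hold a paramyosin core and myosin heavy chains and are held at the M-line, while the thin filaments carry tropomyosin and troponin and are anchored at dense bodies, the counterparts of vertebrate Z-discs. The pharynx, the feeding pump, uses its own myosin heavy chains. Several of these genes also make different protein forms by choosing between alternative exons.

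The deposited expression values were group means of scaled read counts, 1 value per gene and group in each table. Whole reads of single libraries could be recovered for 99.8% of 132603 gene and group values, from the deposited digits of all tables that hold a group, which for each cadmium group is 1 table, and a scaled read below is a recovered read divided by its library's scaling factor. The exceptions among the sarcomere genes were unc-54 in the 3 cadmium groups and unc-15 in control(RNAi) and numr-1/2(RNAi) with cadmium, for which the authors' pooled values alone are given. In the cadmium groups sarcomere genes were searched at any level and kept where 1 solution fitted. Other abundant genes were left out where a solution by chance was too likely. Recovered cadmium reads of the most abundant sarcomere genes, and tests on them, are thus less certain. Libraries without cadmium held 34604859 to 40521063 recovered reads, and the pooled totals of the cadmium groups were 33749127 to 35629055. One library stood apart. Replicate 1 of control(RNAi) with cadmium held more reads than replicates 2 and 3 for several sarcomere genes, for example 15964 scaled reads of myo-1 against 8082 and 7660, so calls of sarcomere genes and counts over gene lists that rest on it are also given without it. Replicate numbers are the positions of the libraries in the deposited splicing cells and carry no pairing.

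The targets of the RNAi clones were read first. The annotation gives the symbol numr-1 to 2 neighbouring genes that are close copies, so reads may be shared between them. Without cadmium the first copy had 22, 42.6 and 9.27 scaled reads in control(RNAi) and 25.0, 42.4 and 19.7 in numr-1/2(RNAi), and the groups overlapped, so the target gives no check of that knockdown. With cadmium it had 133, 134 and 148 scaled reads in control(RNAi) and 64.4, 50.6 and 43.9 in numr-1/2(RNAi), where every knockdown library was lower. The second copy showed the same order, with 108, 415 and 188 against 60.8, 39.0 and 43.9 under cadmium. For ints-4, the 6 ints-4(RNAi) libraries held 508 to 709 scaled reads and the other 12 libraries 1059 to 1714, without overlap.

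All 10 sarcomere genes were abundantly read in every group, which is what whole animals with muscle should show. Per kilobase of exon in control(RNAi), the order of the levels was unc-54 at 40364 ± 6946 scaled reads (SD, n = 3), lev-11 at 31990 ± 449, mup-2 at 31228 ± 740, unc-15 at 28649 ± 3965 and unc-87 at 12496 ± 363. Below these came atn-1 at 3832 ± 571, myo-3 at 3138 ± 611, myo-2 at 2036 ± 533, myo-1 at 1729 ± 534 and unc-89 at 471 ± 141. The libraries of lev-11 and mup-2, of mup-2 and unc-15, of lev-11 and unc-15, of atn-1 and myo-3, of myo-3 and myo-2, and of myo-2 and myo-1 overlapped, so the order within those pairs is not set by these data. The length used is the union of annotated exons, which for unc-89 is 25.94 kb over 16 transcripts and for lev-11 2.38 kb over 20.

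**Figure D1:**
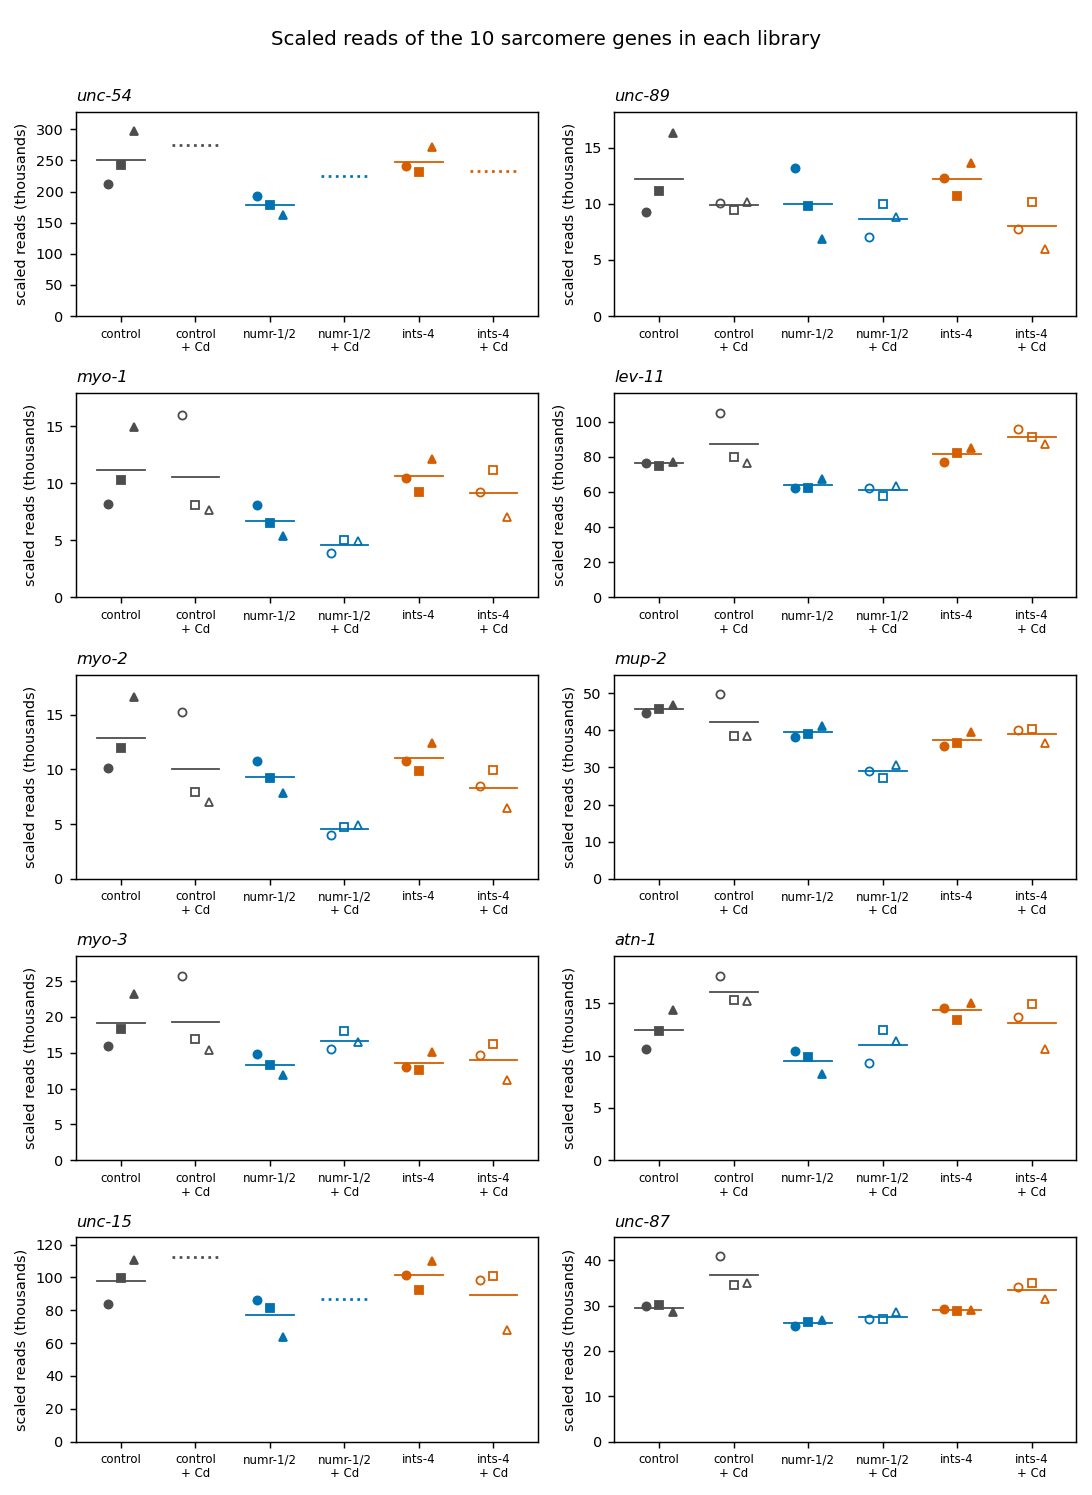
Scaled reads (vertical axis from 0, in kiloreads) of each of the 10 genes in the 6 groups, with circles, squares and triangles for replicates 1, 2 and 3, filled symbols without and open symbols with cadmium, and a line at the group mean. Dotted lines mark the authors' pooled value where no library values were recovered, from a table with its own scaling. For myo-1 and myo-2 the open symbols of numr-1/2(RNAi) lie between 3860 and 5005 scaled reads, below every other library of those genes.

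Sarcomere mRNA values lay below those of control(RNAi) in both numr-1/2(RNAi) groups, and few of these genes changed in the other comparisons. In the pooled values 0 of 10 genes differed by 2-fold after numr-1/2(RNAi) without cadmium, where 9.69% of 18479 genes were higher and 10.4% lower by that much, but all 10 log2 changes were below 0, from -0.73 to -0.17 with a median of -0.36 against -0.03 over all genes. With cadmium all 10 were again below 0, with a median of -0.48 against -0.03, and 2 of them, myo-1 at -1.17 and myo-2 at -1.12, were at least 2-fold lower, against a background of 7.48% lower and 10.2% higher. No deposited pair of pooled values sets a knockdown with cadmium beside control(RNAi) with cadmium. Pooled changes of the knockdowns with cadmium, for members and background, were therefore combined from other comparisons. These were the knockdown without cadmium and cadmium in each of the 2 RNAi backgrounds, each with its own scaling. After ints-4(RNAi) no sarcomere gene passed 2-fold without cadmium (background 12.5% higher, 9.27% lower, median of the 10 genes -0.01) or with it (10.6% higher, 9.25% lower, median -0.26). Cadmium itself moved none of the 10 by 2-fold. That holds in control(RNAi) (background 10.9% higher and 6.51% lower), within numr-1/2(RNAi) (12.4% and 6.16%) and within ints-4(RNAi) (5.53% and 4.1%), with medians of 0.09, 0.03 and -0.10. The comparisons share groups, so their medians are not independent of each other.

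The recovered reads gave each change an error. By limma across all genes, with Benjamini-Hochberg adjustment, 4 of 10 sarcomere genes fell and 0 rose after numr-1/2(RNAi) without cadmium (background 21.0% lower, 20.3% higher), and with cadmium 6 of 8 fell and 0 rose (21.1% lower, 21.0% higher). After ints-4(RNAi), 2 of 10 fell without cadmium (19.1% lower, 16.8% higher) and 0 of 8 passed with it (16.5% lower, 18.7% higher), where 2 had an unadjusted p under 0.05 and voom weights also called 0. Cadmium raised 1 of 8 in control(RNAi) (14.6% higher, 16.5% lower), lowered 2 of 8 in numr-1/2(RNAi) (17.7% lower, 16.7% higher) and moved 0 of 9 in ints-4(RNAi) (8.5% higher, 6.07% lower), where again 2 had an unadjusted p under 0.05 and voom weights called 0. Scaled by total reads, cadmium raised 3 of 8 in control(RNAi), where the calls over all genes went from 2484 higher and 2798 lower to 3122 and 2033, and raised 3 and lowered 2 of 8 in numr-1/2(RNAi), where they went from 2833 and 3003 to 4150 and 1771. Without replicate 1 of control(RNAi) with cadmium, cadmium raised 1 and lowered 2 of 8 in control(RNAi). Of these 7 comparisons numr-1/2(RNAi) with cadmium had the share of sarcomere genes called farthest from its background, and those 6 calls held whichever single library was left out. The 4 calls of numr-1/2(RNAi) without cadmium went to 0 without replicate 2 or 3 of control(RNAi) or replicate 2 or 3 of numr-1/2(RNAi), and to 7 without replicate 1 of control(RNAi) with cadmium, which enters that fit through the shared spread. The 2 calls of ints-4(RNAi) went to 0 without replicate 2 or 3 of control(RNAi) or replicate 1 or 2 of ints-4(RNAi). The cadmium effect itself was not shown to differ between numr-1/2(RNAi) and control(RNAi), with 0 of 8 genes called for that difference (3.75% higher, 3.35% lower over all genes, 1 sarcomere gene with an unadjusted p under 0.05), nor between ints-4(RNAi) and control(RNAi), with 0 of 8 (7.5% higher, 4.96% lower, 1 gene). Voom weights called 0 in both, and 3 and 1 genes were called with a trend on gene length removed.

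**Figure D2:**
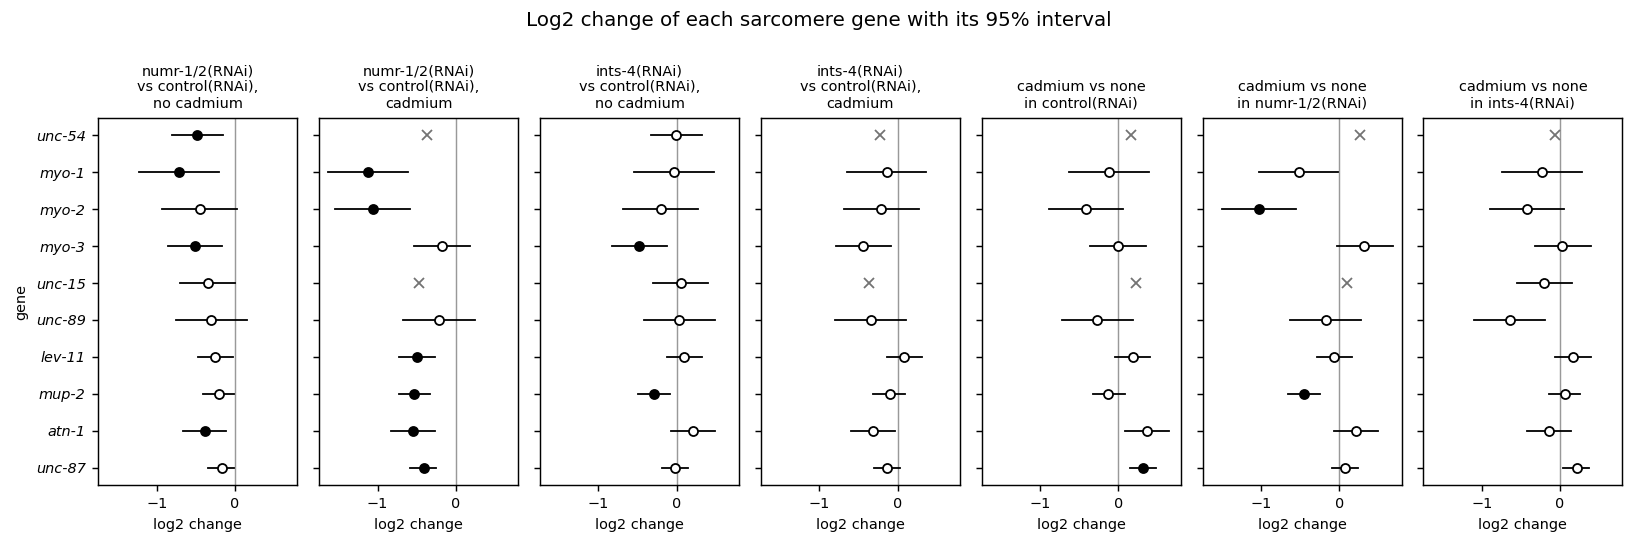
Log2 change of each gene (rows) in 7 comparisons (panels), with bars for a normal 95% interval from the limma SE on recovered reads, filled points for an adjusted p under 0.05, and crosses for changes of pooled values that have no interval. The bars are narrower than the interval of the limma test, so a bar clear of 0 is not by itself a call. In the panel of numr-1/2(RNAi) with cadmium 6 genes have filled points, from -0.41 for unc-87 to -1.12 for myo-1, and no filled point lies above 0 except unc-87 under cadmium in control(RNAi), at 0.31.

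Among the thick filament genes, the pharyngeal myosin heavy chains showed the largest differences. The myo-1 gene (I:7258946-7267057, minus strand) makes a myosin heavy chain of the pharynx. It had 8212, 10334 and 14955 scaled reads in control(RNAi) and 8105, 6517 and 5396 in numr-1/2(RNAi). With cadmium it had 15964, 8082 and 7660 in control(RNAi) and 3860, 5005 and 4960 in numr-1/2(RNAi). Every knockdown library lay below every control library in both settings, with a log2 change of -0.72 ± 0.26 (SE, adjusted p = 0.035) without cadmium and -1.12 ± 0.26 (adjusted p = 0.0024) with it. The ints-4(RNAi) libraries, at 10492, 9282 and 12117 without cadmium and 9279, 11167 and 7060 with it, overlapped their controls.

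The other pharyngeal myosin, myo-2 (X:12468061-12475348, plus strand), followed the same pattern under cadmium. Control(RNAi) held 10114, 11916 and 16649 scaled reads without cadmium and 15239, 7897 and 7043 with it. In numr-1/2(RNAi) there were 10816, 9208 and 7835 without cadmium and 3959, 4766 and 4944 with it, and those last 3 libraries were below all others. The change from numr-1/2(RNAi) under cadmium was -1.06 ± 0.24 (adjusted p = 0.0022), and that from cadmium within numr-1/2(RNAi) was -1.02 ± 0.24 (adjusted p = 0.003), while numr-1/2(RNAi) without cadmium gave -0.45 ± 0.24 (adjusted p = 0.14). The cadmium change differed between numr-1/2(RNAi) and control(RNAi) by -0.61 ± 0.34 (adjusted p = 0.37), or by -0.26 (adjusted p = 0.64) without replicate 1 of control(RNAi) with cadmium. With a trend on gene length removed this difference was called for myo-2 at -0.86 (adjusted p = 0.0029), for myo-1 at -0.66 (adjusted p = 0.017) and for atn-1 at -0.31 (adjusted p = 0.014). Without replicate 1 of control(RNAi) with cadmium, numr-1/2(RNAi) under cadmium lowered myo-1 by -0.78 (adjusted p = 0.014) and myo-2 by -0.72 (adjusted p = 0.011), and cadmium lowered myo-2 in control(RNAi) by -0.76 (adjusted p = 0.0084), which had been -0.41 ± 0.24 (adjusted p = 0.21) with it. In ints-4(RNAi) the libraries held 10772, 9855 and 12456 scaled reads without and 8525, 9950 and 6487 with cadmium, with no call.

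The body wall myosins differed less. The gene unc-54 (I:14855901-14863482, minus strand), the major myosin heavy chain of body wall muscle, had 211727, 242675 and 296859 scaled reads in control(RNAi), with 192881, 178615 and 162385 in numr-1/2(RNAi) and 240538, 231506 and 270954 in ints-4(RNAi). All 3 numr-1/2(RNAi) libraries were below the controls (-0.48 ± 0.17, adjusted p = 0.038), and ints-4(RNAi) overlapped them (-0.01 ± 0.17). In the pooled values, cadmium changed unc-54 by 0.16 in control(RNAi), 0.27 in numr-1/2(RNAi) and -0.06 in ints-4(RNAi) on the log2 scale, with no test.

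The minor body wall myosin myo-3 (V:12226817-12234343, minus strand), which sits near the middle of the thick filament, was the one thick filament gene called lower after both knockdowns without cadmium. It had 15878, 18376 and 23215 scaled reads in control(RNAi), with 14783, 13306 and 11944 in numr-1/2(RNAi) and 13032, 12608 and 15144 in ints-4(RNAi). Both knockdowns lay below control(RNAi) without overlap, by -0.51 ± 0.18 (adjusted p = 0.032) and -0.48 ± 0.18 (adjusted p = 0.046). The call after ints-4(RNAi) was lost with scaling by total reads (-0.34, adjusted p = 0.095) and without replicate 3 of control(RNAi) (-0.33, adjusted p = 0.2) or several other single libraries. These comparisons share the control(RNAi) libraries. With cadmium the libraries held 25672, 16930 and 15328 in control(RNAi), with 15493, 18093 and 16456 in numr-1/2(RNAi) and 14712, 16229 and 11197 in ints-4(RNAi), and the groups overlapped.

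Paramyosin, encoded by unc-15 (I:7376604-7383197, minus strand), forms the core of the thick filament. It had 83827, 99611 and 110849 scaled reads in control(RNAi), with 86177, 81308 and 63688 in numr-1/2(RNAi) and 101612, 92128 and 109966 in ints-4(RNAi). Both knockdowns overlapped control(RNAi), while every numr-1/2(RNAi) library lay below every ints-4(RNAi) library, at -0.40 ± 0.18 (adjusted p = 0.075), or at -0.50 (adjusted p = 0.019) with scaling by total reads. Under cadmium the pooled change was -0.47 after numr-1/2(RNAi) and -0.36 after ints-4(RNAi). The giant M-line protein gene unc-89 (I:4035702-4090885, plus strand), the counterpart of vertebrate obscurin, ranged from 9243 to 16308 scaled reads in control(RNAi), 6882 to 13157 in numr-1/2(RNAi) and 10648 to 13666 in ints-4(RNAi). With cadmium it ranged from 9410 to 10156, 7000 to 9960 and 5979 to 10160. Its only non-overlapping comparison was cadmium in ints-4(RNAi), at -0.64 ± 0.23 (adjusted p = 0.074), and it passed in none.

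The 4 thin filament and dense body genes all fell after numr-1/2(RNAi) with cadmium, by -0.41 to -0.55. Tropomyosin, encoded by lev-11 (I:14621169-14631094, minus strand), lies along the actin filament and gates myosin binding. It had 76767, 74999 and 76930 scaled reads in control(RNAi), with 62379, 62520 and 67622 in numr-1/2(RNAi) and 77090, 81906 and 85119 in ints-4(RNAi). With cadmium it had 105206, 79857 and 76308 in control(RNAi), with 62371, 57989 and 63453 in numr-1/2(RNAi) and 95988, 91224 and 87200 in ints-4(RNAi). The numr-1/2(RNAi) libraries were the lowest in both settings, by -0.25 ± 0.11 (adjusted p = 0.092) without cadmium and -0.49 ± 0.11 (adjusted p = 0.0025) with it. Without the outlying control library the second value was -0.35 (adjusted p = 0.01).

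Troponin T, encoded by mup-2 (X:6408471-6410227, minus strand), ties the troponin complex to tropomyosin. It had 44718, 45647 and 46880 scaled reads in control(RNAi), with 38221, 39100 and 41274 in numr-1/2(RNAi) and 35730, 36711 and 39679 in ints-4(RNAi). Cadmium gave 49797, 38435 and 38360 in control(RNAi), with 29117, 27198 and 30786 in numr-1/2(RNAi) and 40133, 40360 and 36472 in ints-4(RNAi). It was lowest in numr-1/2(RNAi) with cadmium, below control(RNAi) with cadmium by -0.53 ± 0.10 (adjusted p = 0.00068), or -0.41 (adjusted p = 0.0027) without the outlying library, and below its own level without cadmium by -0.45 ± 0.10 (adjusted p = 0.0026). It also fell after ints-4(RNAi) without cadmium, by -0.29 ± 0.10 (adjusted p = 0.036). That call was lost with scaling by total reads (-0.15, adjusted p = 0.14) and without any one of the 3 control(RNAi) libraries or replicate 1 or 2 of ints-4(RNAi), with adjusted p of 0.052 to 0.12. Without the outlying library cadmium lowered it in control(RNAi) by -0.25 (adjusted p = 0.046).

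The calponin-like protein UNC-87 binds and bundles actin in the sarcomere, and its gene unc-87 (I:6761221-6767797, minus strand) was the one sarcomere gene that rose with cadmium by this fit. With scaling by total reads lev-11 (0.27) and atn-1 (0.47) also rose with cadmium in control(RNAi), myo-3 (0.51), atn-1 (0.39) and unc-87 (0.26) in numr-1/2(RNAi), and unc-87 (0.23) in ints-4(RNAi). With the length trend removed atn-1 (0.45) rose in control(RNAi), and myo-3 (0.39) and unc-87 (0.35) in ints-4(RNAi). Control(RNAi) held 29809, 30186 and 28549 scaled reads without cadmium and 40916, 34458 and 34875 with it, a change of 0.31 ± 0.08 (adjusted p = 0.0088), or 0.23 (adjusted p = 0.038) without the outlying library. In numr-1/2(RNAi) the values were 25488, 26318 and 26806 without and 27032, 27022 and 28605 with cadmium (0.07 ± 0.08, adjusted p = 0.58), and in ints-4(RNAi) 29188, 28808 and 29004 without and 34058, 34962 and 31413 with it (0.21 ± 0.08, adjusted p = 0.12). All 3 RNAi backgrounds had every cadmium library above every library without cadmium. The cadmium effect in numr-1/2(RNAi) differed from that in control(RNAi) by -0.24 ± 0.12 (adjusted p = 0.29), and under cadmium numr-1/2(RNAi) was lower than control(RNAi) by -0.41 ± 0.08 (adjusted p = 0.001), or by -0.33 (adjusted p = 0.0046) without that library.

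Alpha-actinin, encoded by atn-1 (V:12478411-12484449, plus strand), crosslinks thin filaments at the dense body. It had 10668, 12355 and 14378 scaled reads in control(RNAi), with 10466, 9908 and 8213 in numr-1/2(RNAi) and 14574, 13384 and 15059 in ints-4(RNAi). With cadmium it had 17617, 15343 and 15229, then 9313, 12465 and 11370, then 13680, 14947 and 10657 in the same order of RNAi. It was lower after numr-1/2(RNAi) without overlap in both settings, by -0.38 ± 0.14 (adjusted p = 0.039) without and -0.55 ± 0.14 (adjusted p = 0.0055) with cadmium, or -0.48 (adjusted p = 0.026) without the outlying library. The difference with cadmium in control(RNAi), 0.37 ± 0.14, had an adjusted p of 0.056, 0.16 without that library and 0.024 without replicate 3 of control(RNAi).

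Set directly against ints-4(RNAi), with no control(RNAi) library in the comparison, numr-1/2(RNAi) was lower in 4 of 10 sarcomere genes without cadmium (background 25.7% lower, 25.1% higher) and in 5 of 8 with it (23.5% lower, 20% higher), and higher in none. These comparisons were added after the data had been seen. Without cadmium the 4 were unc-54 (-0.48 ± 0.17, adjusted p = 0.033), myo-1 (-0.68 ± 0.26, adjusted p = 0.037), lev-11 (-0.34 ± 0.11, adjusted p = 0.02) and atn-1 (-0.60 ± 0.14, adjusted p = 0.0021). With cadmium the 5 were myo-1 (-0.98 ± 0.26, adjusted p = 0.0056), myo-2 (-0.85 ± 0.24, adjusted p = 0.0087), lev-11 (-0.58 ± 0.11, adjusted p = 0.00055), mup-2 (-0.43 ± 0.10, adjusted p = 0.003) and unc-87 (-0.28 ± 0.08, adjusted p = 0.013). Leaving out 1 library gave 1 to 5 calls without cadmium, 1 of them without replicate 2 of numr-1/2(RNAi) or replicate 3 of ints-4(RNAi) and 2 without replicate 3 of numr-1/2(RNAi) or replicate 1 or 2 of ints-4(RNAi), and 4 to 6 with it.

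In whole animals, less RNA of a gene within muscle and a smaller share of muscle in all RNA cannot be told apart. Markers of other tissues moved with these results. After numr-1/2(RNAi), 11 of 12 germline and oocyte markers rose without cadmium (median log2 change 1.16) and 12 of 12 with it (1.62), as did 9 and 10 of 10 sperm markers (1.49 and 1.38), the latter 7 of 10 (0.97) without the outlying library. Their summed levels were 105085 to 121468 scaled reads for germline and oocyte markers in numr-1/2(RNAi) against 53948 to 69595 in control(RNAi), and 33612 to 44102 against 7981 to 23584 for sperm markers. Vitellogenin and intestine markers rose in 7 of 12 and fell in 2 without cadmium (387556 to 568732 against 161831 to 182113), and rose in 7 of 11 and fell in 2 with it. Hypodermis and moulting markers fell in 11 of 14 without cadmium (median -2.25) and 12 of 14 with it (-0.78), and neuron markers fell in 9 of 10 (-0.47) and 7 of 10 (-0.46). No marker was at 0 in every library. After ints-4(RNAi) without cadmium 6 of 12 germline markers fell and 1 rose, 9 of 12 intestine markers fell and 1 rose, 6 of 14 hypodermis markers fell and 2 rose, 2 of 10 neuron markers rose and 0 sperm markers passed. With cadmium, ints-4(RNAi) had 7 of 12 germline markers higher, 11 of 14 hypodermis markers lower, 1 of 11 intestine markers higher and 3 lower, 2 of 10 neuron markers higher and 1 lower, and 0 sperm markers called. Cadmium lowered 11 of 12 germline markers in control(RNAi) (-1.53), 10 in numr-1/2(RNAi) and 7 in ints-4(RNAi). It lowered 7 and raised 2 of 11 vitellogenin and intestine markers in control(RNAi) (-2.54), lowered 7 and raised 1 in numr-1/2(RNAi) (-2.27), and lowered 3 and raised 2 in ints-4(RNAi) (-0.08). It raised 11 of 14 hypodermis markers in numr-1/2(RNAi) (1.37) while it lowered 10 of 14 in ints-4(RNAi) (-0.74). The part of these tissues in the sarcomere results was not tested.

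Gene length also moved with the libraries. Across 358 genes with at least 5 kb of exon the median log2 change after numr-1/2(RNAi) was -0.47 without cadmium and -0.21 with it, against 0.10 and 0.01 for 5962 genes under 1.5 kb. For cadmium in ints-4(RNAi) the medians were -0.50 and 0.08. The 5 sarcomere genes of at least 5 kb are unc-54, myo-1, myo-2, myo-3 and unc-89, and replicate 3 of control(RNAi), for example, was 0.40 above its group in long genes and 0.40 above it in these 5. The 5 shorter genes were 0.04 above their group there. With a trend on gene length removed, a step chosen after seeing the data, unc-54 changed by -0.08 and myo-3 by -0.11 after numr-1/2(RNAi) without cadmium and lost their calls, so that 2 of 10 genes were called. With cadmium 6 of 8 genes were called on that setting too.

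**Figure D3:**
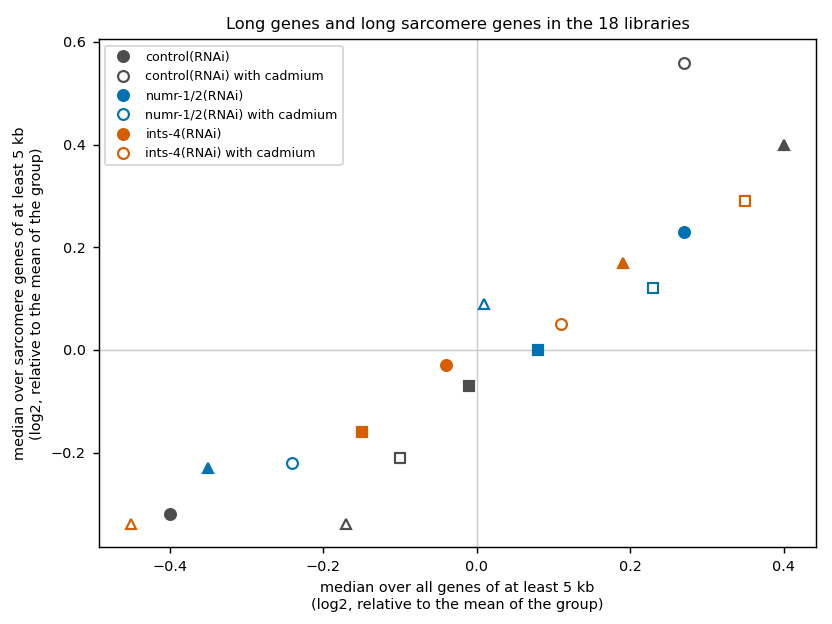
Each of the 18 libraries placed by the median log2 deviation from its group mean of genes with at least 5 kb of exon (horizontal axis) and of the sarcomere genes of that length (vertical axis), with group by colour. The libraries run from -0.45 to 0.40 on the horizontal axis and from -0.34 to 0.56 on the vertical axis, where replicate 1 of control(RNAi) with cadmium is highest.

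The other genes of the sarcomere and its surroundings were read as lists chosen by role. Of 14 further thick filament and M-line genes, limma called 6 lower and 0 higher after numr-1/2(RNAi) without cadmium and 7 lower and 0 higher with it, with medians of -0.38 and -0.57. Without the outlying library the counts with cadmium were 6 lower and 1 higher, with a median of -0.38. Among them the regulatory light chain mlc-1 was lower with cadmium by -0.75 ± 0.10 (adjusted p = 2e-05), or -0.64 (adjusted p = 6e-05) without that library, and the giant kinase gene ttn-1 without cadmium by -0.70 ± 0.23 (adjusted p = 0.022). After ints-4(RNAi) 4 of 14 fell without cadmium, or 2 fell and 3 rose with scaling by total reads, and 4 of 12 with it, or 3 lower and 1 higher without the outlying library, led by lim-8, a LIM-domain protein of the M-line, at -1.27 ± 0.15 (adjusted p = 2.3e-06) and -1.41 ± 0.15 (adjusted p = 8.9e-07). The myosin chaperone unc-45 fell by -0.63 ± 0.13 (adjusted p = 0.00088) without cadmium. Against ints-4(RNAi), numr-1/2(RNAi) was higher for lim-8 by 1.60 ± 0.15 (adjusted p = 7.3e-08). Cadmium moved 0 of 14 in control(RNAi), where unc-45 was nearest at -0.35 ± 0.13 and was called at -0.50 (adjusted p = 0.0051) without the outlying library. It raised 4 of 14 there with scaling by total reads. Cadmium lowered 1 of 14 in numr-1/2(RNAi), mlc-1 at -0.36 (adjusted p = 0.0092), or at -0.18 (adjusted p = 0.091) with scaling by total reads, and moved 0 of 12 in ints-4(RNAi).

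Of 26 thin filament genes, 17 of 25 tested fell and 1 rose after numr-1/2(RNAi) with cadmium (median -0.48 against -0.03 over all genes), while 6 of 26 fell and 2 rose without it (median -0.07). The shares of all genes that fell were 21.1% with cadmium and 21.0% without it, so the second count was near its background. After ints-4(RNAi) 16.5% fell and 18.7% rose with cadmium, and 19.1% and 16.8% without it. Cadmium lowered 16.5% and raised 14.6% of all genes in control(RNAi), and 17.7% and 16.7% in numr-1/2(RNAi). Without the outlying library 15 of 25 fell with cadmium, and 12 with scaling by total reads. The pharyngeal troponin T gene tnt-4 and troponin C gene tnc-2 had the largest changes under cadmium, -1.11 ± 0.14 (adjusted p = 1.3e-05) and -1.06 ± 0.14 (adjusted p = 1.8e-05), or -0.90 and -0.86 without the outlying library. Cadmium lowered 12 of 25 and raised 2 in numr-1/2(RNAi), or lowered 8 and raised 5 with scaling by total reads, with tnt-4 at -0.99 ± 0.14 (adjusted p = 2.7e-05), and raised 4 and lowered 1 in control(RNAi), where it raised 2 and lowered 3 without the outlying library and raised 8 with scaling by total reads. The difference of those cadmium effects was called for 4 of 25 genes, or for 3 without that library, all lower in numr-1/2(RNAi) (3.35% lower over all genes). After ints-4(RNAi) without cadmium 3 of 26 rose and 3 fell, among them the troponin I gene tni-1 (-0.83 ± 0.10, adjusted p = 4.9e-06) and the calponin-like gene cpn-2 (-0.81 ± 0.13, adjusted p = 5.8e-05), and with cadmium 3 of 22 rose and 4 fell, or 5 rose and 3 fell without the outlying library. With scaling by total reads 6 rose and 2 fell without cadmium.

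Of 18 dense body and attachment genes, 8 fell after numr-1/2(RNAi) without cadmium and 11 with it, or 10 without the outlying library, and 0 rose. Over all genes 21.0% were lower without cadmium and 21.1% with it. After ints-4(RNAi) the lower shares were 19.1% and 16.5%, and for cadmium in numr-1/2(RNAi) 17.7%. The talin gene tln-1, which links integrin to actin, fell by -0.97 ± 0.24 (adjusted p = 0.0043) without cadmium, and the vinculin gene deb-1 by -0.69 ± 0.15 (adjusted p = 0.0014) with it, or by -0.59 (adjusted p = 0.0088) without that library. After ints-4(RNAi) 3 fell and 2 rose without cadmium and 8 fell, or 2 without the outlying library, and 1 rose with it, the gene that rose being frg-1, an actin-bundling protein at dense bodies, by 1.16 ± 0.12 (adjusted p = 6.3e-07). In numr-1/2(RNAi) cadmium lowered 5 and raised 1, or 3 each with scaling by total reads, with the LIM-domain genes unc-97 and unc-95 at -0.72 ± 0.08 (adjusted p = 1.7e-06) and -0.67 ± 0.09 (adjusted p = 2.3e-05).

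Of 21 calcium handling and excitation genes 14 fell after numr-1/2(RNAi) without cadmium (median -0.52) and 10 of 19 with it (-0.51), or 9 without the outlying library, and 0 rose. The shares of all genes that fell were 21.0% and 21.1%. After ints-4(RNAi) without cadmium 19.1% of all genes fell and 16.8% rose. The dystrophin gene dys-1 fell by -1.27 ± 0.31 (adjusted p = 0.0042) without cadmium and the potassium channel gene twk-18 by -0.95 ± 0.13 (adjusted p = 3.9e-05) with it, or by -0.81 (adjusted p = 0.00023) without that library. After ints-4(RNAi) without cadmium 2 fell and 1 rose, and the inositol trisphosphate receptor gene itr-1 fell by -0.95 ± 0.24 (adjusted p = 0.004).

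The regulators of muscle genes gave uneven counts, some of them near the shares over all genes. Those shares were 21.0% lower and 20.3% higher after numr-1/2(RNAi) without cadmium, and 21.1% and 21.0% with it. After ints-4(RNAi) they were 19.1% lower and 16.8% higher without cadmium, and 16.5% and 18.7% with it. Of 9 transcription regulators, 5 of 8 tested fell after numr-1/2(RNAi) with cadmium and 2 of 8 without it. After ints-4(RNAi) 2 of 8 fell without cadmium and 3 of 8 with it, with hlh-8, a factor of the sex and enteric muscles, at -1.98 ± 0.22 (adjusted p = 1.7e-06) and unc-120, the worm serum response factor, at -0.72 ± 0.11 (adjusted p = 4.1e-05). Of 10 splicing regulators with roles in muscle or its alternative exons, 6 fell and 1 rose after numr-1/2(RNAi) without cadmium and 3 fell with it, fox-1 by -0.71 ± 0.17 (adjusted p = 0.0031) and -0.90 ± 0.17 (adjusted p = 0.00053). After ints-4(RNAi) 2 fell without cadmium, sup-12 by -0.49 ± 0.11 (adjusted p = 0.0019), and 7 fell and 1 rose with it, the muscleblind gene mbl-1 by -1.01 ± 0.25 (adjusted p = 0.0039). Without the outlying library the counts with cadmium were the same except 6 splicing regulators lower after ints-4(RNAi), and the changes of hlh-8, unc-120, fox-1 and mbl-1 with cadmium were -2.04, -0.78, -0.91 and -0.96.

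Markers of pharyngeal and body wall muscle gave the following counts. Over all genes 21.1% were lower after numr-1/2(RNAi) with cadmium and 21.0% without it. The share was 19.1% after ints-4(RNAi) without cadmium and 17.7% for cadmium in numr-1/2(RNAi). It was 16.5% for cadmium in control(RNAi) and 6.07% in ints-4(RNAi). For the difference of the cadmium effect in numr-1/2(RNAi) it was 3.35%. Of 7 pharyngeal muscle genes, which include myo-1 and myo-2, 6 fell after numr-1/2(RNAi) with cadmium (median -1.06, or -0.78 without the outlying library) and 2 without it (-0.38). Their summed level was 13119 to 15575 scaled reads in numr-1/2(RNAi) with cadmium, below the 22262 to 44846 of all other libraries. Cadmium within numr-1/2(RNAi) lowered 4 of 7 (median -0.53) and in control(RNAi) and ints-4(RNAi) 0 of 7. That sum was 44846 in 1 library of control(RNAi) with cadmium and 22994 and 24575 in the others, and without replicate 1 cadmium lowered 1 of 7 there, myo-2. The difference of the cadmium effect between numr-1/2(RNAi) and control(RNAi) was called for 1 of 7. Of 5 body wall muscle genes, 2 of 5 fell after numr-1/2(RNAi) without cadmium and 0 of 3 tested with it, and 1 of 5 fell after ints-4(RNAi) without cadmium. Not tested with cadmium were unc-54 and unc-15, whose reads were not recovered. Their pooled changes after numr-1/2(RNAi) with cadmium were -0.37 and -0.47. The 3 tested were hlh-1 at -0.51 ± 0.22 (limma, adjusted p = 0.066), unc-89 at -0.21 and myo-3 at -0.18. Both lists contain members.

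By the 5 pooled log2 changes, 1 per table, the genes outside the list most like the median of the members were ags-3, gdi-1, alp-1, F43D2.6 and WBGene00014309, with root mean square differences of 0.042, 0.05, 0.05, 0.052 and 0.057. Among the members unc-15 was nearest to that median, at 0.08, and myo-2 farthest, at 0.53.

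The splicing columns are named sample 1 and sample 2, not by group. The first was taken as the group the table is named for, and the second as the group whose cells in other tables were identical to it. Splicing was read from deposited inclusion and skipping reads of 6047 events, of which 19 lie in 4 of the 10 genes. There were 14 in lev-11, 3 in unc-89 and 1 each in atn-1 and unc-87, and 0 in the other 6 genes. A quasi-binomial test of each event, adjusted over all events, called 7 of 15 member events after numr-1/2(RNAi) without cadmium (background 4.65%). All 7 were in lev-11. With cadmium it called 5 of 9 (6.93%), 4 of them in lev-11. After ints-4(RNAi) it called 3 of 11 without cadmium (1.22%), all in lev-11, and 0 of 12 with it (0.264%), where 5 had an unadjusted p under 0.05. For cadmium it called 1 of 11 in control(RNAi) (0.733%), 2 of 14 in numr-1/2(RNAi) (3.24%) and 1 of 11 in ints-4(RNAi) (0.496%). For the difference of the cadmium effect it called 0 of 9 in numr-1/2(RNAi) (0.0%) and 0 of 10 in ints-4(RNAi) (0.138%), with 1 and 2 unadjusted p-values under 0.05. In the added comparison of both knockdowns it called 8 of 12 without cadmium (14.4%), 6 of them in lev-11, and 7 of 9 with it (8.9%), 5 of them in lev-11. Leaving out 1 numr-1/2(RNAi) library reduced the 7 to 4, leaving out replicate 1 or 3 of numr-1/2(RNAi) with cadmium the 5 to 2, and leaving out replicate 1 of control(RNAi) with cadmium raised the 0 of ints-4(RNAi) with cadmium to 5. Many of the lev-11 events share exons and reads, so their calls are not separate findings and do not stand for the sarcomere genes as a group. limma on the log2 ratio of the same reads called 0 member events in each of these comparisons except 3 in numr-1/2(RNAi) against ints-4(RNAi) without cadmium. On simulated data that test recovered almost none of the changes put in, so its counts are no check of the calls below. The quasi-binomial test recovered 32% of log odds changes of 1 and 7% of 0.5 on data simulated from numr-1/2(RNAi) without cadmium. For ints-4(RNAi) without cadmium it recovered 41% and 13%. Of its calls 7.14% and 5.26% were false. The simulated events had spreads drawn at random from all events and shared no reads. These rates are thus not rates for the sarcomere events themselves. An event without a call may thus still have changed.

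In lev-11, a 208-base exon near the 3′ end (I:14622304-14622511) moved in opposite directions after the 2 knockdowns. It is annotated in 4 of 20 transcripts and holds the stop codon of all 4. After a 70-base exon (I:14622828-14622897) it had 395 to 1592 inclusion and 4671 to 7657 skipping reads in a library. Its inclusion was 3.888, 4.364 and 3.905% in control(RNAi), with 6.902, 6.602 and 7.067% in numr-1/2(RNAi) and 1.696, 1.92 and 1.787% in ints-4(RNAi). Replicates lay close together and groups apart, at 0.56 ± 0.04 (adjusted p = 4.4e-06) and -0.83 ± 0.05 (adjusted p = 2.9e-06) in log odds. With cadmium the values were 2.092, 3.413 and 3.673%, then 6.091, 7.052 and 6.846%, then 1.727, 1.821 and 1.637% in the same order of RNAi, and replicate 1 of control(RNAi) stood apart. The numr-1/2(RNAi) libraries stayed above control (0.84 ± 0.10, adjusted p = 0.00021, or 0.66 and 3.8e-08 without the outlying library), and ints-4(RNAi) was lower without overlap at -0.56 ± 0.13 (adjusted p = 0.19), or at -0.74 (adjusted p = 7.3e-07) without the outlying library. Set against each other, the knockdowns differed by 1.39 ± 0.05 (adjusted p = 3.1e-14) without and 1.40 ± 0.06 (adjusted p = 3.7e-14) with cadmium. Cadmium gave no call for this exon in any RNAi background.

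A second event of the files sets the same exon against an 86-base exon (I:14622658-14622743), which itself holds a stop codon in the 2 annotated transcripts that contain it. The inclusion reads of that event were 654, 502 and 507 in control(RNAi), and the reads that join the 208-base exon to the last exon, as counted in another event, were 654, 496 and 510. Nearly all its inclusion reads are thus shared with transcripts that come from the 70-base exon, and its percentage is a ratio of reads over the 208-base exon to reads that join the 86-base exon to the last exon, not inclusion after the 86-base exon. That ratio was 41.4, 38.6 and 34.5% in control(RNAi), with 57.4, 63.8 and 60.1% in numr-1/2(RNAi) and 17.6, 20.8 and 23.7% in ints-4(RNAi), from 238 to 991 inclusion and 124 to 430 skipping reads in each of the 18 libraries. The 3 groups did not overlap, with log odds changes of 0.89 ± 0.10 (adjusted p = 0.00019) and -0.87 ± 0.11 (adjusted p = 0.002). With cadmium it was 19.2, 39.3 and 36.2% in control(RNAi), with 56.7, 57.9 and 57.5% in numr-1/2(RNAi) and 22.3, 20.2 and 20% in ints-4(RNAi). There numr-1/2(RNAi) was again higher (1.12 ± 0.20, adjusted p = 0.0029, or 0.80 and 7.4e-05 without replicate 1 of control(RNAi) with cadmium, and 1.13 and 0.053 without replicate 1 of numr-1/2(RNAi) with cadmium). The ints-4(RNAi) change was -0.51 ± 0.23 (adjusted p = 0.43), or -0.83 (adjusted p = 0.00022) without that control library. Both events read the 208-base exon, so they are not separate findings, and the ratio also moves with the 86-base exon. Between the 70-base and last exons, the 86-base exon was included at 3.371, 3.778 and 4.356% in control(RNAi) and 2.944, 2.268 and 2.789% in numr-1/2(RNAi). That change was -0.36 ± 0.09 (adjusted p = 0.042), and ints-4(RNAi) gave 0.01 ± 0.08 (adjusted p = 0.95). With cadmium numr-1/2(RNAi) gave -0.25 ± 0.11 (adjusted p = 0.25). Further events share these exons and reads. Between the 70-base and 208-base exons, the 86-base exon changed without cadmium by -0.81 ± 0.21 after numr-1/2(RNAi) (adjusted p = 0.043) and 0.54 ± 0.21 after ints-4(RNAi) (adjusted p = 0.38). For the exon I:14623010-14623148 set against the 208-base exon, the changes were -0.59 ± 0.05 (adjusted p = 1.9e-05) and 0.79 ± 0.06 (adjusted p = 3.7e-05).

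Other lev-11 exons moved as well. The gene holds a pair of mutually exclusive 118-base exons (I:14624303-14624420 and I:14624544-14624661), both wholly coding. The upstream one of the pair, I:14624544-14624661, was used at 63.4, 66.0 and 73.7% in control(RNAi), with 58.9, 56.2 and 61.1% in numr-1/2(RNAi) and 78.8, 74.3 and 80.9% in ints-4(RNAi). The groups did not overlap, at -0.40 ± 0.10 (adjusted p = 0.043) for numr-1/2(RNAi) and 0.53 ± 0.12 (adjusted p = 0.062) for ints-4(RNAi). With cadmium the values were 76.3, 64.4 and 66.3%, then 48.5, 51.8 and 56.5%, then 81.5, 79.9 and 75.9%. There numr-1/2(RNAi) was lower than control (-0.75 ± 0.13, adjusted p = 0.002, or -0.54 and 7.4e-05 without the outlying library) and than ints-4(RNAi) (-1.26 ± 0.08, adjusted p = 3.6e-10). A minor 139-base exon (I:14623571-14623709), used in place of I:14623010-14623148, was at 1.772, 1.866 and 1.896% in control(RNAi) and 1.154, 1.134 and 1.324% in numr-1/2(RNAi) (-0.43 ± 0.07, adjusted p = 0.0018), and at 1.52, 1.402 and 1.555% in ints-4(RNAi) (-0.21 ± 0.05, adjusted p = 0.1). The numr-1/2(RNAi) libraries were lowest of the 3 groups. With cadmium numr-1/2(RNAi), at 1.189, 1.14 and 1.318%, was below control(RNAi), at 1.648, 1.477 and 1.77% (-0.30 ± 0.08, adjusted p = 0.041), and the call was lost without the outlying control library (-0.29, adjusted p = 0.053). Cadmium libraries of ints-4(RNAi) held 1.892, 1.803 and 1.768%.

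**Figure D4:**
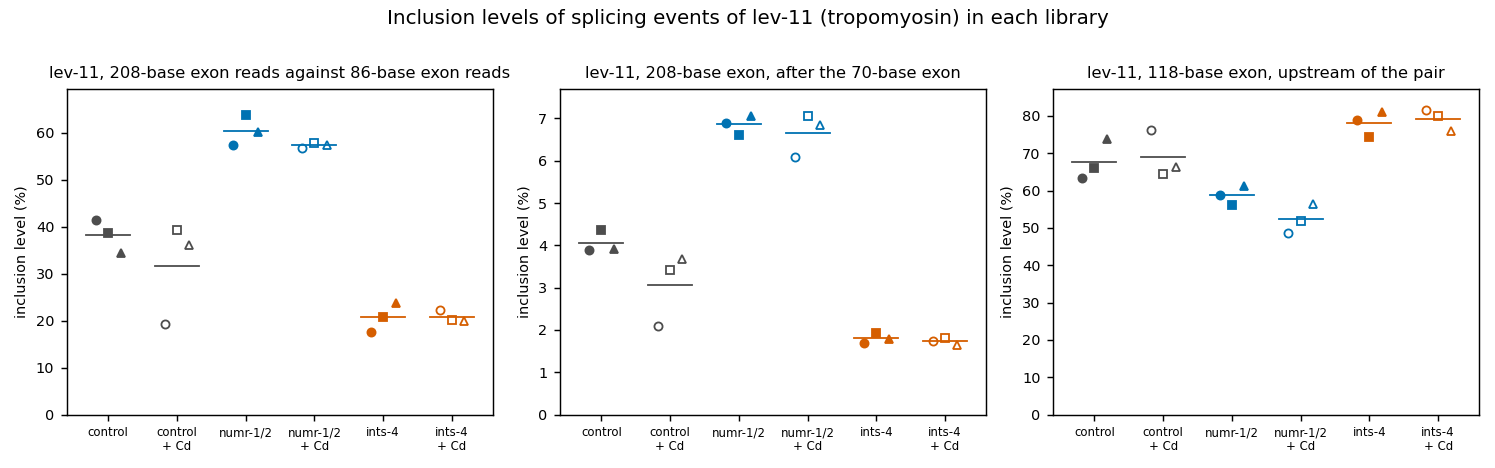
Inclusion level (%, vertical axis) of 3 events of lev-11, the ratio of 208-base exon reads to 86-base exon reads (left), the 208-base exon after the 70-base exon (middle) and the upstream 118-base exon of the mutually exclusive pair, 1 point per library in the 6 groups with a line at the mean. Without cadmium numr-1/2(RNAi) lies above control(RNAi) and ints-4(RNAi) below it for the 208-base exon, at means of 6.86, 4.05 and 1.8% after the 70-base exon, and in the reverse order for the 118-base exon, at 58.7, 67.7 and 78%.

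The atn-1 gene has a pair of mutually exclusive coding exons, of 161 bases (V:12480728-12480888) and 83 bases (V:12481114-12481196), each in 2 of 4 transcripts, read by 476 to 1489 and 48 to 268 reads in a library. The 161-base exon was used at 90.1, 83.4 and 82.1% in control(RNAi) and at 73.4, 68.1 and 64.9% after cadmium. Those groups did not overlap, and the log odds change was -0.91 ± 0.17 (adjusted p = 0.032), or -1.03 (adjusted p = 0.023) without the outlying library. In numr-1/2(RNAi) it was used at 74.4, 79.6 and 72.5% without and 63.8, 63.7 and 68.7% with cadmium (-0.50 ± 0.11, adjusted p = 0.023). In ints-4(RNAi) it was used at 87, 83 and 82.2% without and 77.6, 79.0 and 82.3% with cadmium, where the groups overlapped (-0.33 ± 0.14, adjusted p = 0.42). Leaving out 1 control(RNAi) library moved the adjusted p of the cadmium change in control(RNAi) to 0.055, 0.12 or 0.17, and leaving out replicate 2 of numr-1/2(RNAi), or replicate 1 or 2 of numr-1/2(RNAi) with cadmium, moved that in numr-1/2(RNAi) to 0.14, 0.061 or 0.15. The numr-1/2(RNAi) value was also below control(RNAi) without cadmium, at -0.59 ± 0.16 (adjusted p = 0.056), and below ints-4(RNAi) both without (-0.54 ± 0.14, adjusted p = 0.01, or 0.054 and 0.076 without replicate 3 of numr-1/2(RNAi) and replicate 1 of ints-4(RNAi)) and with cadmium (-0.70 ± 0.12, adjusted p = 0.00063). With cadmium ints-4(RNAi) lay above control(RNAi) without overlap, at 0.53 ± 0.13 (adjusted p = 0.21), or 0.65 (adjusted p = 0.008) without the outlying library. The cadmium effect differed from that in control(RNAi) by 0.41 ± 0.22 in numr-1/2(RNAi) (adjusted p = 0.58) and by 0.58 ± 0.23 in ints-4(RNAi) (adjusted p = 0.45).

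In unc-87 the event is a 548-base stretch (I:6765007-6765554) that lies within the annotated first exon of 1 of 2 transcripts. No annotated transcript has this stretch as an exon of its own. Reads of transcripts that begin in that first exon may count as inclusion, so the level is not plain inclusion of an exon. Its level was under 1%, with 193 to 713 inclusion reads in a library. It was at 0.221, 0.212 and 0.332% in control(RNAi) and 0.457, 0.332 and 0.385% with cadmium (0.44 ± 0.12, adjusted p = 0.12). In ints-4(RNAi) it rose from 0.246, 0.169 and 0.263% to 0.31, 0.343 and 0.462% with cadmium (0.47 ± 0.10, adjusted p = 0.013). In numr-1/2(RNAi) it moved the other way, from 0.356, 0.358 and 0.391% to 0.267, 0.234 and 0.216% (-0.43 ± 0.06, adjusted p = 0.0014), with no overlap. With cadmium numr-1/2(RNAi) was thus below control(RNAi) (-0.51 ± 0.09, adjusted p = 0.0031, or -0.41 and 0.002 without the outlying library). The difference of the cadmium effect between numr-1/2(RNAi) and control(RNAi) was -0.87 ± 0.16 with an adjusted p of 0.075, and 0.0079 without replicate 3 of control(RNAi). The ints-4(RNAi) call was lost without its replicate 1 (adjusted p = 0.15) or 2 (adjusted p = 0.13), and the lower level under cadmium without replicate 3 of numr-1/2(RNAi) with cadmium (adjusted p = 0.074). The events of unc-89 were read by few and uneven reads, and none was called.

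**Figure D5:**
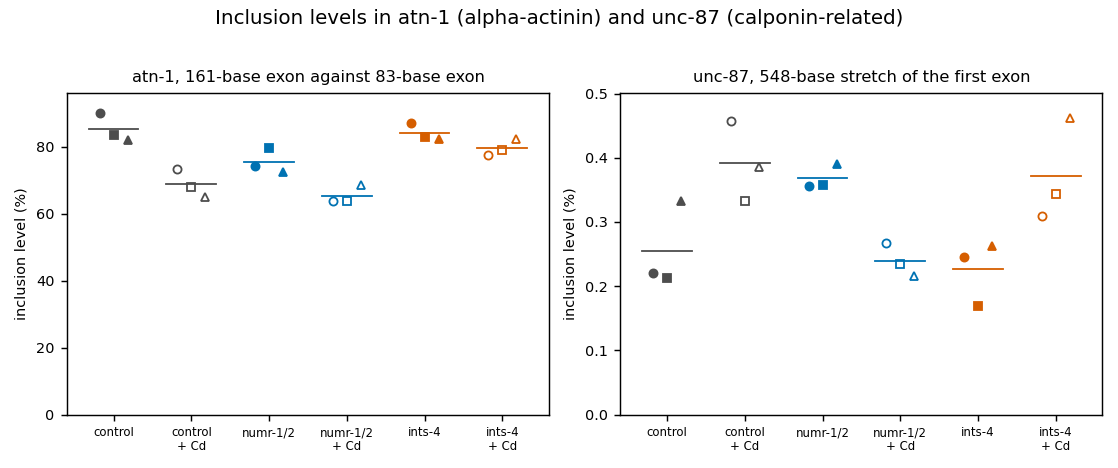
Inclusion level (%, vertical axes, each with its own range) of the 161-base exon of atn-1 and of the 548-base stretch of the first exon of unc-87, 1 point per library in the 6 groups with a line at the mean. For atn-1 the mean fell from 85.2 to 68.8% with cadmium in control(RNAi) and from 75.5 to 65.4% in numr-1/2(RNAi), and for unc-87 the points of numr-1/2(RNAi) fell with cadmium while those of ints-4(RNAi) rose.

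The reads over splicing events gave a further per-library measure of lev-11, unc-87, atn-1 and unc-89. By limma on the most read event of each gene, 0 of 4 were called for cadmium in numr-1/2(RNAi) (13.3% of genes) and in ints-4(RNAi) (4.13%), for numr-1/2(RNAi) without (20.7%) and with cadmium (14.4%), and for ints-4(RNAi) with it (9.87%). For cadmium in control(RNAi) (7.97%) and ints-4(RNAi) without cadmium (20.1%) 0 of 3 were called, and unc-89 was not tested. Of the tested changes, those of unc-87 and unc-89 had an unadjusted p under 0.05 in 1 comparison each. Between the knockdowns 0 of 4 were called without cadmium (33.6%), 2 with an unadjusted p under 0.05, and lev-11 alone with it (19.5%), at -0.58 ± 0.14 (adjusted p = 0.033). That call was lost whichever of the 6 libraries was left out, with adjusted p of 0.058 to 0.11, and with the sum over events (-0.43, adjusted p = 0.073). The lev-11 change after numr-1/2(RNAi) was -0.03 ± 0.14 without and -0.28 ± 0.16 with cadmium on this measure, and the atn-1 change -0.33 ± 0.24 and -0.45 ± 0.21.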

How the data were processed

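Expression values were deposited as pooled signal, made by the authors with HISAT2 2.1.0 and HTSeq 0.6.1 as the mean over the 3 libraries of a group of each library's read count divided by a scaling factor, in 5 tables of 2 groups. The submitters' notes also name Cufflinks 2.1.1. The methods name DEGSeq and rMATS. Splicing cells were deposited with inclusion and skipping reads of 3 libraries joined, and with other columns for effective form lengths and inclusion levels, which per the file headers come from rMATS. Columns of fold changes, p-values and inclusion differences hold the authors' own comparisons and were not used. The genome build was not given in the sources used here. Of 10894 ends of alternative exons in the files 10750 matched exon ends of the WBcel235 annotation, whose positions are printed for genes.

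The splicing cells had lost commas. Of 37570 cell pairs 16139 kept them, 13788 had 1 split that gave the deposited inclusion levels, 7557 were settled by even totals, and 70 with several splits and 16 with none were left out. Splicing columns name no group and were assigned by the name of their table and by cells identical between tables. One splicing book named for ints-4(RNAi) and cadmium compares ints-4(RNAi) with control(RNAi), both with cadmium. Whole reads per library were recovered from the digits of the pooled values (132322 of 132603 values), using all tables that hold a group, which for each cadmium group is 1 table, and scaled within 1 fit of all 6 groups. In the cadmium groups high values were searched near the usual ratios between libraries. The limit on solutions expected by chance was not applied there to the sarcomere genes.

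The planned expression result was the log2 ratio of pooled values with no test. For each knockdown with cadmium against control(RNAi) with cadmium it was combined from the log2 ratios of other comparisons. After the data had been seen, limma 3.58.1 was run on log2(scaled reads + 0.5), for genes with at least 10 reads in 3 libraries, two-sided, with Benjamini-Hochberg adjustment over all genes and a threshold of 0.05. Fold changes on this scale understate those of low genes. For splicing, inclusion against skipping reads were compared by a quasi-binomial model with limma-moderated dispersion, adjusted over all events that had 10 or more reads in each library. Changes of events are natural log odds. Scripts ran in Python 3.11.15 with pandas 2.3.3 and NumPy 2.4.6, R 4.3.3 and matplotlib 3.10.9, and the tests were tested on simulated data. There limma on reads recovered 52.1% of log2 changes of 1 and 28% of 0.5, and 10.3% of its calls were false. A gene without a call may thus still have changed. The libraries are described as 3 biological replicates of each group. The 10 genes, the gene lists and the comparisons were chosen with earlier results of these data known. Named were all 10 genes and their called events, from each list at most the 2 genes with the largest change in each comparison among those with a value of at least 100, and the 5 nearest genes by pattern. Fold thresholds, pseudocounts, filters, scalings, other tests and single libraries left out were tried as alternatives.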

Additional observations from a re-analysis of the deposited data

Results flagged for a closer look

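In lev-11 the minor 139-base exon at I:14623571-14623709 changed with cadmium in opposite directions in control(RNAi), where every cadmium library was lower (1.648, 1.477 and 1.77% against 1.772, 1.866 and 1.896%), and in ints-4(RNAi), where every cadmium library was higher (1.892, 1.803 and 1.768% against 1.52, 1.402 and 1.555%). The difference of the changes in log odds was 0.33 ± 0.08, with an unadjusted p of 0.0012 and an adjusted p of 0.15 by the quasi-binomial test over all events, so it did not pass the threshold.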

How the results depend on the processing

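No paired analysis was possible because the columns carry no replicate number that ties a library to its label. In the pooled values a threshold of 1.5-fold in place of 2-fold was passed by 1 sarcomere gene each for numr-1/2(RNAi) without cadmium, cadmium in numr-1/2(RNAi) and cadmium in ints-4(RNAi), and at 3-fold 0 genes passed under numr-1/2(RNAi) with cadmium. The pseudocount of 4, the filter of 50 reads and voom weights changed no call that they could be run on (95, 95 and 88 results).

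Scaling by total reads gave limma calls of 3 genes for cadmium in control(RNAi), where lev-11 (0.27) and atn-1 (0.47) joined unc-87, 5 in numr-1/2(RNAi), where myo-3 (0.51), atn-1 (0.39) and unc-87 (0.26) rose beside the falls of myo-2 and mup-2, and 1 in ints-4(RNAi), unc-87 (0.23), 1 for ints-4(RNAi) without cadmium, where atn-1 rose (0.35, adjusted p = 0.042) and myo-3 (-0.34) and mup-2 (-0.15) lost their calls, and 1 for the difference of the cadmium effect in ints-4(RNAi). With it the calls over all genes, higher and lower, went from 2484 and 2798 to 3122 and 2033 for cadmium in control(RNAi), from 2833 and 3003 to 4150 and 1771 in numr-1/2(RNAi), from 2858 and 3265 to 4041 and 2495 for ints-4(RNAi), from 3551 and 3576 to 4421 and 2609 for numr-1/2(RNAi) with cadmium, and for the differences of the cadmium effect from 636 and 568 to 853 and 413 and from 1269 and 840 to 1013 and 1050. The median of all genes moved from 0.00 to 0.18 for cadmium in numr-1/2(RNAi), from 0.04 to 0.18 for ints-4(RNAi), from -0.03 to 0.10 for numr-1/2(RNAi) with cadmium and from -0.02 to -0.12 between the knockdowns without cadmium. With the length trend removed the calls were 2 genes for cadmium in control(RNAi), 2 in ints-4(RNAi), 2 for numr-1/2(RNAi) without cadmium, and for the difference of the cadmium effect 3 in numr-1/2(RNAi) (myo-1 -0.66, myo-2 -0.86, atn-1 -0.31) and 1 in ints-4(RNAi) (atn-1 -0.37). The causes of these shifts were not tested.

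Leaving out 1 library in turn gave, for genes called by limma, 1 to 3 for cadmium in control(RNAi), 2 in numr-1/2(RNAi), 0 to 1 in ints-4(RNAi), 0 to 7 for numr-1/2(RNAi), 0 to 2 for ints-4(RNAi), 6 and 0 to 1 for the knockdowns with cadmium, 1 to 5 and 4 to 6 between the knockdowns, and 0 for the differences. For member events called it gave 0 to 1, 1 to 3 and 0 to 1 for cadmium, 4 to 8 and 3 to 4 for the knockdowns, 2 to 7 and 0 to 5 with cadmium, 7 to 8 and 6 to 7 between them, and 0 to 1 and 0 for the differences.

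With limma on the log2 ratio in place of the quasi-binomial test, which recovered almost none of the changes put into simulated data, 0 member events were called for cadmium in each RNAi background, for either knockdown without cadmium, for numr-1/2(RNAi) with cadmium and between the knockdowns with cadmium, and 3 between them without it. Over all events the count for cadmium in control(RNAi) went from 22 to 38 at 20 reads, and that of ints-4(RNAi) with cadmium from 8 to 3 at 1 read. By reads over events, between the knockdowns, 1 gene was called without cadmium with the median of ratios and 1 with 20 reads, 0 with cadmium with the sum over events, and leaving out 1 library gave 0 to 2 without cadmium, 0 with it, 0 to 1 for cadmium in ints-4(RNAi) and 0 elsewhere. No setting reversed a direction of a called result.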
